A study of Mus musculus with 12 samples.

Results

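The genes described here are 10 members of the TGF-beta and BMP signalling system. Earlier results of these data were known when they were chosen. They were chosen by symbol, as 3 TGF-beta ligands (Tgfb1, Tgfb2, Tgfb3), 3 BMP ligands (Bmp4, Bmp6, Bmp7), 2 receptors (Tgfbr1, Tgfbr2), the inhibitory Smad gene Smad7 and the target gene Id1. They are 10 of the 56748 genes in the deposited count table, and all 10 passed the filter on low counts that left 16947 genes to test. RNA of kidney tissue from wild-type C57bl/6 mice was sequenced in bulk, with 4 samples in each of 3 groups. The pFUS_UC group received cisplatin, pulsed focused ultrasound and mesenchymal stem cells (MSCs) from umbilical cord; the UC group received cisplatin and the same kind of cells; the AKI (acute kidney injury) group received cisplatin alone. Cisplatin is an anticancer drug toxic to tubule cells, and all 12 samples carry it, so no level could be set against an uninjured kidney. No group received ultrasound alone. The labels do not say whether samples of a group came from separate animals, so p-values measure the spread between these samples. The sources used here do not give age, sex, cell dose, ultrasound setting or time of sampling.

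TGF-beta ligands are secreted in a latent form, are released from it, and bind a pair of receptor kinases, TGFBR2 first and then TGFBR1. The activated receptor phosphorylates SMAD2 and SMAD3, which enter the nucleus with SMAD4 and change transcription, often of matrix genes. BMP ligands use related receptors and SMAD1, SMAD5 and SMAD9, and switch on the ID genes. SMAD7 is made in response to the signal and shuts the receptors down. In the kidney, TGF-beta 1 is known as a driver of fibrosis, while BMP7, made by tubules and podocytes, is needed for nephron formation in the mouse embryo and is known to oppose TGF-beta in injured tubules.

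RefSeq promoter sequences (GRCm38.p6) matched 6 of the 10 genes: Tgfb1, Tgfb2, Tgfbr1, Tgfbr2, Bmp4 and Bmp6. The 250 bases before the start are shown for Bmp6, Tgfb2 and Tgfbr2, whose level was lower in both MSC groups than in AKI, and for Bmp4, whose level passed no test. Capitals mark the letters CAGAC or their reverse complement GTCTG (the SMAD box), GGCGCC (a GC-rich SMAD element, its own reverse complement) and TATAAA (the TATA box, searched on the gene's strand only). No 2 of the motifs overlap in these stretches. The coordinates are those of GRCm38.p6 and not of the build of the count table.
Bmp6 (chr13:38345466-38345715, plus strand): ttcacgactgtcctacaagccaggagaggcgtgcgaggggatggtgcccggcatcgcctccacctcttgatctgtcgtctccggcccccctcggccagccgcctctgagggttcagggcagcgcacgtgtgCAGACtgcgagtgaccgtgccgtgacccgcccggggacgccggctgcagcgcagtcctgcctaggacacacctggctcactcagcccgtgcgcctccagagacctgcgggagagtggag
Tgfb2 (chr1:186705990-186706239, minus strand): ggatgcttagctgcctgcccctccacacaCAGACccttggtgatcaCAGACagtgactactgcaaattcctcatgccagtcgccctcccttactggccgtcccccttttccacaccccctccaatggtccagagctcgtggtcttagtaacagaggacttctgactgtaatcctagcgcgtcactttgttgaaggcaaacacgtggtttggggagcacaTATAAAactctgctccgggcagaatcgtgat
Tgfbr2 (chr9:116175364-116175613, minus strand): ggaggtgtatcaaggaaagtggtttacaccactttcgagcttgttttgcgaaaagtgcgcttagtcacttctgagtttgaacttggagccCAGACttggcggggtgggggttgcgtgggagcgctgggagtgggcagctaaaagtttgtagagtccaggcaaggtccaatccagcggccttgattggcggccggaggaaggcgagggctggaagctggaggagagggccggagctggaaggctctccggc
Bmp4 (chr14:46390670-46390919, minus strand): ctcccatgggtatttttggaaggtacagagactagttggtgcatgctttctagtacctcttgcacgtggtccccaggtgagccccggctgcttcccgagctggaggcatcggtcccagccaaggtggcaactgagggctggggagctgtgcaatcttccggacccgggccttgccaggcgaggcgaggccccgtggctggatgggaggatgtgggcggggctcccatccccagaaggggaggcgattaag

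The SMAD box stood once in the Bmp6 stretch, at -119 relative to the start, once in that of Tgfbr2, at -160, and at -221 and -204 in that of Tgfb2, which also held a TATA box at -31. The Bmp4 stretch held none of these letters. Of the matched genes not shown, Tgfb1, which fell, held none either, and Tgfbr1, which passed no test, held the GC-rich element at -233 in 1 of its RefSeq entries and a SMAD box at -203 in the other. Of the 32851 RefSeq promoter stretches of the same length, 42.2% held a SMAD box, 9.59% the GC-rich element and 7.59% a TATA box, so a SMAD box match is common. A match describes the letters and does not show that a factor binds there.

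Library totals ran from 17326425 to 25153857 counts, and 3 counts, the limit that a count of 0 allows, corresponded to 0.126 to 0.187 CPM (counts scaled to library size with TMM factors; counting error only). The libraries of the AKI group differed from the others in composition. Genes of the mitochondrial genome held 7.38 to 15.3% of counts in pFUS_UC, 8.57 to 18.6% in UC and 2.87 to 7.12% in AKI. The MSC library nearest to AKI was pFUS_UC replicate 1 (7.38%), and its length correlation, described next, was 0.0112. UC replicates 1 and 2 were the highest, at 18.6% each. The rank correlation, over protein-coding genes, between gene length and a library's deviation from the 12-library mean was -0.244 to 0.0112 in pFUS_UC, -0.209 to -0.13 in UC and 0.157 to 0.377 in AKI. Sample codes of AKI are of another type than those of UC and pFUS_UC, so a batch, if the codes mark one, and AKI cannot be told apart. Tubule markers were abundant in every library, with Slc34a1 at 2920 to 6710 CPM and Umod at 422 to 4210 CPM, as kidney tissue should have.

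Levels of different genes were set side by side in the deposited FPKM values, which are per length. In all 3 groups Id1 was the most abundant of the 10 genes, at 106 ± 38.1 FPKM in pFUS_UC, 81.3 ± 39.2 in UC and 111 ± 22.4 in AKI (SD, n = 4 each). Tgfb3 was the least abundant, at 0.495 ± 0.104 FPKM in pFUS_UC, 0.597 ± 0.146 in UC and 0.921 ± 0.256 in AKI, and rested on 22 to 95 counts per library. After Id1 the order in AKI was Bmp6 (28.3 FPKM), Bmp4 (24), Bmp7 (19.9), Tgfbr2 (14.9), Smad7 (13), Tgfb1 (8.15), Tgfbr1 (5.83) and Tgfb2 (1.88). In pFUS_UC the order was Bmp4 (25.4 FPKM), Bmp7 (13.2), Bmp6 (11.2), Tgfbr2 (7.22), Smad7 (6.62), Tgfbr1 (5.85), Tgfb1 (3.73) and Tgfb2 (0.834). UC had the order Bmp4 (24.9 FPKM), Bmp6 (11), Bmp7 (10.1), Tgfbr2 (7.98), Smad7 (6.09), Tgfbr1 (5.85), Tgfb1 (4.24) and Tgfb2 (0.967). The 4 libraries of Bmp4 lay above those of the next gene in pFUS_UC and in UC. In pFUS_UC the ranges of neighbours overlapped for Bmp7 and Bmp6, Tgfbr2 and Smad7, and Smad7 and Tgfbr1. In UC they overlapped from Bmp6 down to Tgfbr1 and between Tgfb2 and Tgfb3. In AKI they overlapped from Bmp6 down to Smad7 and between Tgfb1 and Tgfbr1.

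**Figure D1:**
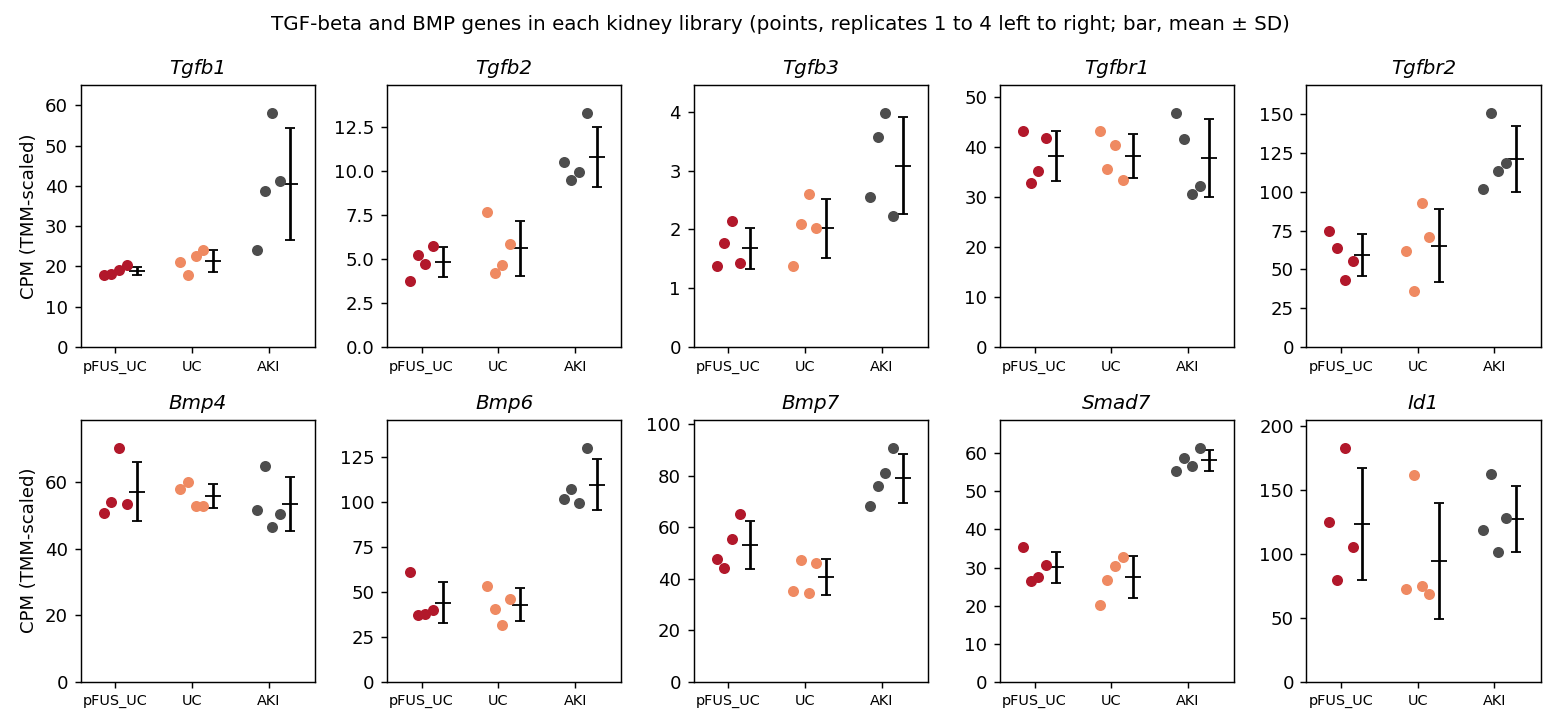
TMM-scaled CPM (vertical axis, linear, from 0) of the 10 genes in the 12 libraries, grouped as pFUS_UC, UC and AKI; points are libraries and bars the mean ± SD of 4. All pFUS_UC and UC points lie below all AKI points for Tgfb1, Tgfb2, Tgfbr2, Bmp6, Bmp7 and Smad7, while those of Tgfbr1, Bmp4 and Id1 overlap.

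Of the TGF-beta ligands, Tgfb1 and Tgfb2 fell in both MSC groups against AKI, and Tgfb3 in pFUS_UC. Tgfb1 (ENSMUSG00000002603, chromosome 7, 25386427 to 25404502, GRCm39), the form best known from fibrosis, had 17.9, 18.1, 19.1 and 20.3 CPM in pFUS_UC kidneys, 21, 17.9, 22.6 and 24 CPM in UC kidneys, and 24.2, 38.8, 58.1 and 41.3 CPM in AKI kidneys (replicates 1 to 4). The spread lay mostly in AKI, where replicate 1 lay just above the highest UC library and replicate 3 was highest. Neither MSC group overlapped AKI, while pFUS_UC and UC overlapped each other. The log2 fold change was -1.11 (SE 0.20, edgeR adjusted p = 0.000922) for pFUS_UC against AKI and -0.92 (SE 0.20, adjusted p = 0.00222) for UC against AKI.

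Tgfb2 (ENSMUSG00000039239, chromosome 1, 186354989 to 186438186), a ligand with roles in heart and kidney development, had 3.72, 5.24, 4.71 and 5.71 CPM in pFUS_UC, 7.66, 4.18, 4.67 and 5.87 CPM in UC, and 10.5, 9.48, 9.96 and 13.3 CPM in AKI. Every library with MSCs lay below every AKI library. Its log2 fold change was -1.16 (SE 0.22, edgeR adjusted p = 0.00102) in pFUS_UC and -0.95 (SE 0.21, adjusted p = 0.00283) in UC, each against AKI. Tgfb3 (ENSMUSG00000021253, chromosome 12, 86103519 to 86125815), known for its part in palate and lung development, had 1.38, 1.76, 2.14 and 1.43 CPM in pFUS_UC, 1.37, 2.09, 2.6 and 2.02 CPM in UC, and 2.55, 3.58, 3.98 and 2.23 CPM in AKI. The pFUS_UC libraries lay below all AKI libraries, with a log2 fold change of -0.88 (SE 0.28, edgeR adjusted p = 0.0213), and those of UC overlapped AKI (-0.61, adjusted p = 0.0862). That Tgfb3 call did not survive leaving out AKI replicate 2 (edgeR adjusted p = 0.0571) or 3 (0.066), or pFUS_UC replicate 1 (0.0534) or 4 (0.0568). Tgfb1 held 73.8 ± 2.49% of the summed FPKM of the 3 ligands in pFUS_UC, 73 ± 1.79% in UC and 73.1 ± 6.09% in AKI (SD, n = 4 each), so the makeup of the ligands was close in the 3 groups.

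Of the BMP ligands, Bmp6 and Bmp7 fell in both MSC groups and Bmp4 passed no test. Bmp6 (ENSMUSG00000039004, chromosome 13, 38529083 to 38684278), which signals the body's iron load to the liver, showed the largest log2 fold change of the 10 genes in both comparisons with AKI. It had 60.7, 37.2, 37.8 and 39.6 CPM in pFUS_UC, 53.1, 40.3, 31.4 and 45.9 CPM in UC, and 101, 107, 99 and 130 CPM in AKI. No library with MSCs came near the AKI range. The log2 fold change was -1.32 (SE 0.19, edgeR adjusted p = 0.000197) for pFUS_UC against AKI and -1.36 (SE 0.19, adjusted p = 0.00011) for UC against AKI, a level 2.49-fold and 2.56-fold lower.

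Bmp7 (ENSMUSG00000008999, chromosome 2, 172709805 to 172782114) had 47.8, 44.2, 55.3 and 65.2 CPM in pFUS_UC, 35.3, 47.3, 34.3 and 45.9 CPM in UC, and 68.1, 76.1, 81.2 and 90.9 CPM in AKI. The highest pFUS_UC library lay just under the lowest AKI library. Bmp7 fell in pFUS_UC by 0.57 on the log2 scale (SE 0.15, edgeR adjusted p = 0.00733) and in UC by 0.96 (SE 0.15, adjusted p = 0.000252), each against AKI. Between pFUS_UC and UC the log2 difference was 0.38 (95% interval 0.0632 to 0.703), with an edgeR adjusted p = 0.597, and the groups overlapped. Bmp7 was the 1 gene among the 10 whose unadjusted edgeR p in that comparison was under 0.05, as it was for 7.92% of all tested genes.

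Bmp4 (ENSMUSG00000021835, chromosome 14, 46620977 to 46628126), a ligand of stromal cells that limits branching of the ureter in the embryo, had 50.7, 54.2, 70.4 and 53.5 CPM in pFUS_UC, 58.1, 60.1, 52.8 and 52.9 CPM in UC, and 51.8, 65.1, 46.5 and 50.6 CPM in AKI. The 3 groups overlapped throughout. Its log2 difference was 0.10 (95% interval -0.177 to 0.373) for pFUS_UC against AKI and 0.07 (-0.21 to 0.34) for UC against AKI, with edgeR adjusted p = 0.56 and 0.697; the point estimates were -0.02 and -0.03 with offsets for gene length and GC content. Bmp4 therefore held 50.9 ± 5.62% of the summed FPKM of the 3 BMP ligands in pFUS_UC and 54.3 ± 3.42% in UC, against 33.3 ± 4.27% in AKI (SD, n = 4 each). Its share was 45.1 to 57.2% and 50.3 to 58.6% in the MSC groups and 28.7 to 38.4% in AKI, with no overlap. The share of Bmp6 was 17.7 to 31.1% in pFUS_UC, 20.1 to 28.2% in UC and 36.4 to 42.5% in AKI. These shares were chosen after the values were seen and are a description without a test.

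Genes on the opposite strand overlap the intervals of 4 of the 10 genes, and the sources used here do not say whether the counting used strand. For Tgfb2 they hold at most 1 count per library on average. Txndc5, a protein disulfide isomerase of the endoplasmic reticulum, overlaps the end of Bmp6. It had mean levels of 140 CPM in pFUS_UC, 142 CPM in UC and 212 CPM in AKI. Like Bmp6 it fell against AKI, by 0.60 in pFUS_UC and 0.58 in UC on the log2 scale (edgeR adjusted p = 0.00229 and 0.00223). Ttll5, a tubulin-modifying enzyme that overlaps Tgfb3, had 11.7, 11.8 and 15 CPM in pFUS_UC, UC and AKI. It was not called against AKI (edgeR adjusted p = 0.0856 in pFUS_UC and 0.0849 in UC). Gm15217, which overlaps the end of Bmp4, had 75.3 CPM in pFUS_UC and 81.9 CPM in UC, against 51.7 CPM in AKI, a rise of 0.54 and 0.66 on the log2 scale (edgeR adjusted p = 0.0318 and 0.0109). Gm15222, within Bmp4, had 5.92, 7.69 and 2.65 CPM and rose by 1.16 and 1.54 (adjusted p = 0.0391 and 0.00942). Whether shared reads bear on the levels of Bmp4, Bmp6 or Tgfb3 was not tested.

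**Figure D2:**
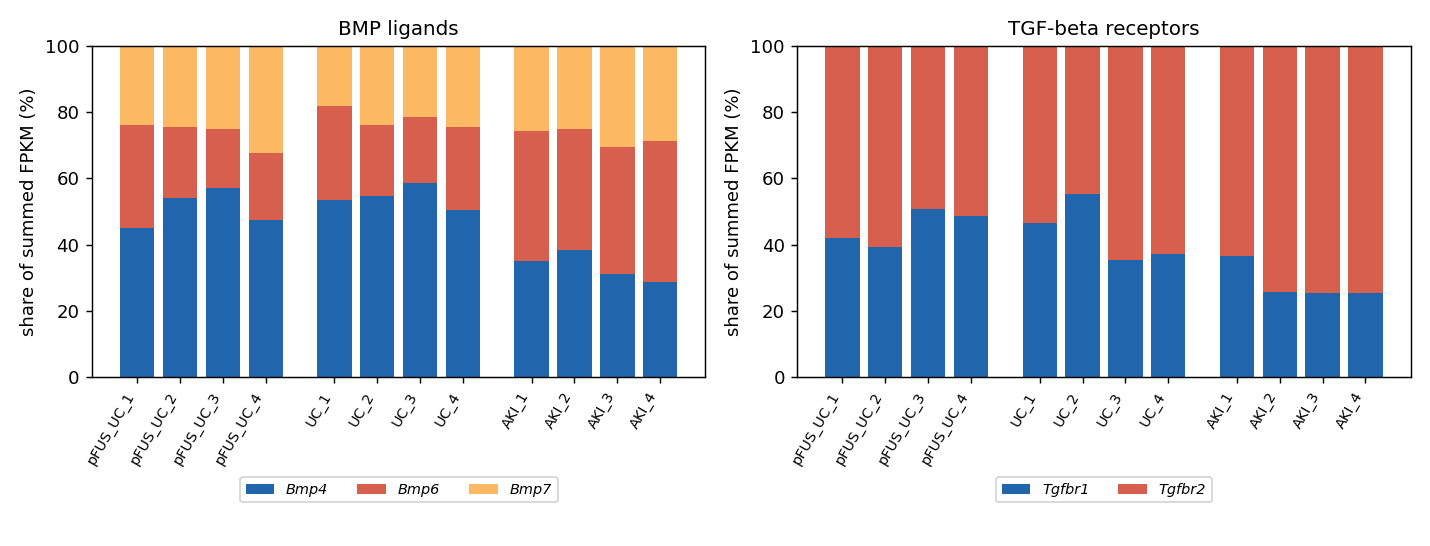
Share (%) of each gene in the summed FPKM of Bmp4, Bmp6 and Bmp7 (left) and of Tgfbr1 and Tgfbr2 (right), 1 bar per library in the order pFUS_UC, UC, AKI. Bmp4 fills 45.1 to 58.6% of the MSC bars and 28.7 to 38.4% of the AKI bars, and Tgfbr2 fills 63.4 to 74.7% of the AKI bars.

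The receptors did not move alike. Tgfbr2 (ENSMUSG00000032440, chromosome 9, 115913361 to 116004428), the kinase that first binds the ligand, had 75, 63.7, 43 and 55.6 CPM in pFUS_UC, 61.9, 36.2, 92.6 and 70.9 CPM in UC, and 102, 151, 113 and 118 CPM in AKI. Neither MSC group overlapped AKI, although UC replicate 3 lay close to AKI replicate 1, while pFUS_UC and UC overlapped each other. It fell by 1.03 on the log2 scale in pFUS_UC (SE 0.24, edgeR adjusted p = 0.00431) and by 0.89 in UC (SE 0.24, adjusted p = 0.00854), each against AKI. The call in UC was lost with offsets for gene length and GC content (-0.53, edgeR adjusted p = 0.0633) and without UC replicates 1 and 2 together (-0.57, adjusted p = 0.0695).

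Tgfbr1 (ENSMUSG00000007613, chromosome 4, 47353222 to 47414931), the kinase that TGFBR2 activates, had 43.3, 32.9, 35.3 and 41.8 CPM in pFUS_UC, 43.2, 35.7, 40.5 and 33.5 CPM in UC, and 46.9, 41.7, 30.7 and 32.2 CPM in AKI. The groups lay on top of each other, with log2 differences of 0.02 (95% interval -0.301 to 0.339, edgeR adjusted p = 0.928) in pFUS_UC and 0.01 (-0.306 to 0.335, adjusted p = 0.944) in UC, each against AKI; their sign changed with the setting. Tgfbr2 made up 54.9 ± 5.37% of the summed FPKM of both receptors in pFUS_UC, 56.4 ± 9.17% in UC and 71.8 ± 5.57% in AKI (SD, n = 4 each). Its share did not overlap between pFUS_UC (49.3 to 60.7%) and AKI (63.4 to 74.7%), while the range of UC (44.8 to 64.6%) reached into that of AKI; these shares were chosen after the values were seen and were not tested.

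Smad7 and Id1, which are both made in response to the pathway, differed in their pattern. Smad7 (ENSMUSG00000025880, chromosome 18, 75500600 to 75529006), the feedback inhibitor, had 35.4, 26.6, 27.5 and 30.6 CPM in pFUS_UC, 20.1, 26.8, 30.5 and 32.8 CPM in UC, and 55.5, 58.9, 56.7 and 61.5 CPM in AKI. The AKI libraries were tightly grouped, with a coefficient of variation of 4.54%, and stood well apart from the others. The log2 fold change was -0.95 (SE 0.14, edgeR adjusted p = 0.000267) for pFUS_UC against AKI and -1.08 (SE 0.14, adjusted p = 8.99e-05) for UC against AKI. Smad6, the inhibitory Smad of the BMP branch (named after its values were seen), had 26.4, 20.3, 25.8 and 22.9 CPM in pFUS_UC, 10.5, 18.9, 20.3 and 21.9 CPM in UC, and 36.2, 41.7, 46.7 and 41.9 CPM in AKI. It fell by 0.80 (edgeR adjusted p = 0.00374) and by 1.22 (adjusted p = 0.000225) on the log2 scale in pFUS_UC and UC against AKI.

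Id1 (ENSMUSG00000042745, chromosome 2, 152578171 to 152579330), a helix-loop-helix protein that binds and blocks other such factors, had 125, 79.4, 183 and 105 CPM in pFUS_UC, 72.1, 162, 74.7 and 68.4 CPM in UC, and 118, 162, 101 and 128 CPM in AKI. The groups overlapped, and 3 UC libraries lay below every AKI library while UC replicate 2 was as high as the highest AKI library. The log2 difference was -0.05 (95% interval -0.68 to 0.582, edgeR adjusted p = 0.906) for pFUS_UC against AKI and -0.44 (-1.07 to 0.197, adjusted p = 0.235) for UC against AKI. The second value depended on UC replicate 2 and on the length correction: without that library Id1 was at -0.83 (edgeR adjusted p = 0.0149), without UC replicates 1 and 2 at -0.84 (0.0426), and with offsets for gene length at -0.87 (0.0238) or for length and GC at -0.79 (0.0406). For pFUS_UC against AKI the sign of Id1 turned to 0.09 with upper-quartile scaling.

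The other ID genes, named after their values were seen, were also close to AKI or below it. Id3 had 116, 100, 158 and 130 CPM in pFUS_UC, 112, 149, 87.5 and 75.1 CPM in UC, and 147, 177, 107 and 108 CPM in AKI. As with Id1, replicate 3 was the highest of pFUS_UC and replicate 2 the highest of UC and of AKI. Its log2 difference was -0.10 (edgeR adjusted p = 0.749; 0.04 with upper-quartile scaling) in pFUS_UC and -0.35 (adjusted p = 0.216) in UC. Id2 was at 0.01 (adjusted p = 0.975; -0.25 with length and GC offsets) and -0.18 (0.336), and Id4 at -0.28 (0.272) and -0.68 (0.0121), in pFUS_UC and UC against AKI; of these edgeR calls that of Id4 in UC passed the threshold. With length and GC offsets Id2 in UC was at -0.39 (adjusted p = 0.0341) and Id4 in pFUS_UC at -0.53 (0.0283). With length offsets Id3 in UC was at -0.61 (adjusted p = 0.0363), and without UC replicates 1 and 2 at -0.73 (0.0328).

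Setting pFUS_UC kidneys against AKI kidneys compares sonication and cells jointly with neither, after cisplatin. A batch, if the sample codes mark one, cannot be told apart from that difference. In pFUS_UC 7 of the 10 genes fell and 0 rose (edgeR, Benjamini-Hochberg adjusted p under 0.05 over all tested genes), with a median log2 fold change of -0.92. Among all 16947 tested genes 22.1% fell, 21.9% rose and the median was 0.02. The same 7 genes lay without overlap below AKI, as did 21.1% of tested genes. Upper-quartile scaling raised the median of all genes by 0.14 here and by 0.12 for UC against AKI; it left 4827 genes higher and 2802 lower in pFUS_UC, where the TMM fit had 3715 higher and 3748 lower.

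The comparison of UC with AKI sets cisplatin with cells beside cisplatin alone, with the same limit on batch. In UC 6 of the 10 genes fell and 0 rose, with a median log2 fold change of -0.91. Of all tested genes 24.3% fell, 24.1% rose and the median was 0.03; 6 of the 10 genes and 21.3% of tested genes lay below AKI without overlap. With upper-quartile scaling 4956 genes were higher and 3292 lower in UC, where the TMM fit had 4085 and 4125. Both comparisons use the same 4 AKI libraries, so their values are not independent of each other.

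The comparison of pFUS_UC with UC asks what ultrasound added to the cells. None of the 10 genes passed (0 of 10, and 0.00% of all tested genes by edgeR), with log2 differences from -0.27 (Tgfb3) to 0.39 (Id1). At an unadjusted p under 0.05 edgeR had 1342 genes, 7.92% of those tested, of which 1, Bmp7, is among the 10. DESeq2 called 44 genes after adjustment and 0 of the 10. The groups overlapped for all 10 genes, while 3.90% of tested genes did not overlap. The 95% intervals still allow differences of size: Tgfb1 lay between -0.614 and 0.252, Tgfb2 between -0.673 and 0.258, Tgfb3 between -0.877 and 0.335, Tgfbr1 between -0.316 and 0.325, and Tgfbr2 between -0.66 and 0.375. For Bmp4 the interval was -0.242 to 0.307, for Bmp6 -0.355 to 0.435, for Smad7 -0.182 to 0.427 and for Id1 -0.245 to 1.02.

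**Figure D3:**
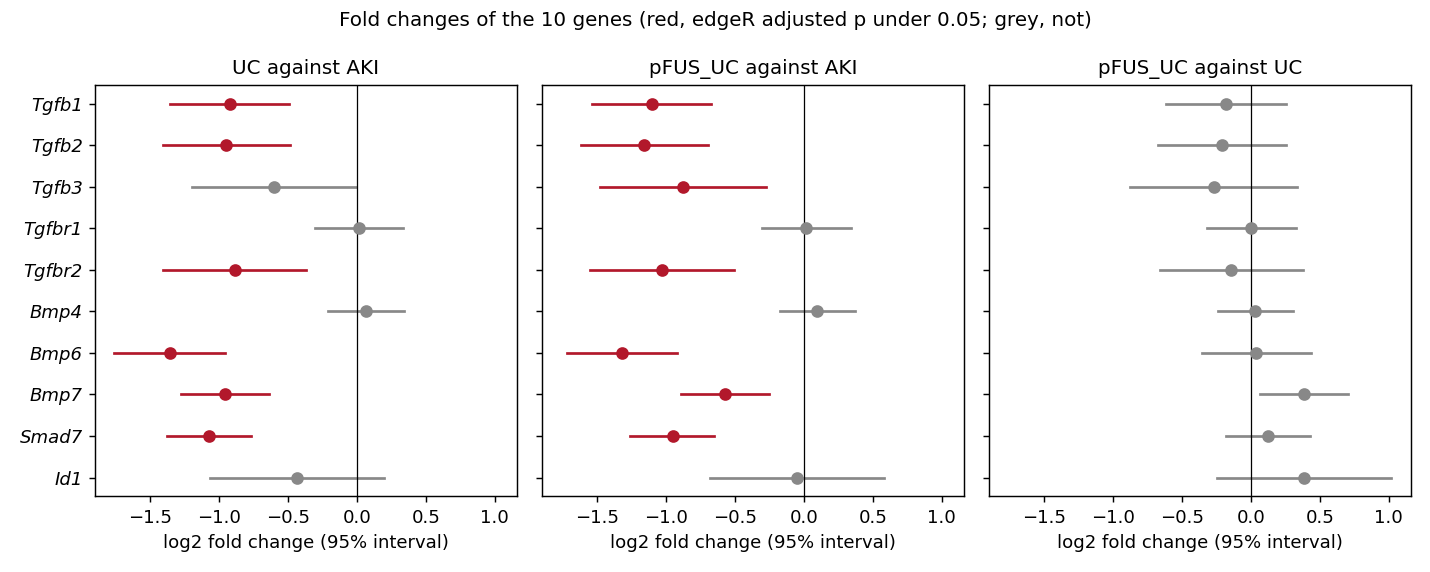
Log2 fold change (horizontal axis) of the 10 genes with its 95% interval in the 3 comparisons; red marks an edgeR adjusted p under 0.05. Against AKI, 6 genes in UC and 7 in pFUS_UC are red and left of 0, and none is red for pFUS_UC against UC.

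Beyond these 10 genes, 81 further genes of the pathway were listed in 6 groups, and 71 of them could be tested. These lists too were chosen with earlier results of these data known. In pFUS_UC against AKI 33 fell and 1 rose (median log2 fold change -0.50), and in UC against AKI 41 fell and 4 rose (median -0.65), beside the shares of all tested genes given above. None passed in pFUS_UC against UC (0 of 71 by edgeR, 1 by DESeq2).

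Of 8 tested other ligands 4 fell and 1 rose in pFUS_UC (median -0.64), and 5 fell and 2 rose in UC (median -0.77). Gdf10, also called BMP3B, was at 2.57 CPM in pFUS_UC and 2.45 CPM in UC, against 11.9 CPM in AKI (log2 fold change -2.21 and -2.27, edgeR adjusted p = 0.00018 and 0.000103). Inhbb, the activin B subunit, fell by 1.67 and 1.82. Inha, the inhibin alpha subunit that turns activin subunits into the antagonist inhibin, was the ligand gene that rose in both, with 3.59, 5.9, 9.03 and 4.53 CPM in pFUS_UC, 4.67, 10.9, 4.36 and 6.74 CPM in UC, and 2.12, 1.87, 1.17 and 1.28 CPM in AKI. Its log2 fold change was 1.84 (edgeR adjusted p = 0.00158) in pFUS_UC and 2.05 (adjusted p = 0.000621) in UC, with no overlap with AKI.

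Of 12 genes for latency and activation 6 fell in pFUS_UC (median -0.52) and 7 in UC (median -0.83), and none rose. Ltbp4, which anchors latent TGF-beta in the matrix, was at 32.5 CPM in pFUS_UC and 24.3 CPM in UC, against 115 CPM in AKI (log2 fold change -1.83 and -2.25). Furin, the protease that cuts TGF-beta and BMP precursors, was at 176 and 162 CPM, against 391 CPM in AKI (-1.15 and -1.27), and Lrrc32, which displays latent TGF-beta on the cell surface, fell by 1.44 and 1.55. Of 10 tested other receptors 5 fell in pFUS_UC (median -0.50), and 7 fell and 1 rose in UC (median -0.69). Eng, the endothelial co-receptor endoglin, had 133, 149, 126 and 153 CPM in pFUS_UC, 60.1, 79, 104 and 143 CPM in UC, and 218, 358, 433 and 328 CPM in AKI. Eng fell by 1.25 (edgeR adjusted p = 0.00138) and 1.79 (adjusted p = 0.000118), the activin receptor gene Acvr1b by 0.64 and 0.75, and the BMP type I receptor gene Acvr1 was at 8.47 CPM in pFUS_UC and 7.77 CPM in UC, against 15.6 CPM in AKI.

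Of 14 tested Smads and Smad regulators 10 fell in each comparison and none rose (median -0.51 in pFUS_UC and -0.59 in UC). Ski, a corepressor that binds Smads, was at 89.2 CPM in pFUS_UC and 80.8 CPM in UC, against 181 CPM in AKI (log2 fold change -1.02 and -1.17, edgeR adjusted p = 5.5e-05 and 2.51e-05). Smad3, the receptor-activated Smad of the TGF-beta branch, fell by 0.85 and 0.89, and Smad4, the shared partner, by 0.73 and 0.69. Of 13 tested extracellular inhibitors 2 fell in pFUS_UC (median -0.15), and 4 fell and 1 rose in UC (median -0.35). Called in either direction were 15.4% and 38.5% of them, against 44% and 48.4% of all tested genes. Of all tested genes 22.1% and 24.3% fell. The follistatin-related genes Fstl3 and Fstl1 fell by 1.73 and 0.92 in pFUS_UC and by 1.98 and 1.05 in UC, and Bambi, a decoy receptor, fell by 1.31 in UC and was not called without UC replicates 1 and 2 (-0.82, edgeR adjusted p = 0.055).

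Of 14 target genes 6 fell in pFUS_UC (median -0.60) and 8 in UC (median -0.77), and none rose. Col1a2, a chain of collagen I, was at 41.7 CPM in pFUS_UC and 28.9 CPM in UC, against 150 CPM in AKI (log2 fold change -1.85 and -2.38). Fn1, fibronectin, was at 51.1 and 26.8 CPM, against 155 CPM in AKI (-1.60 and -2.53). The AKI mean of Fn1 rested largely on AKI replicate 3, with 66.9, 93.5, 320 and 140 CPM in the 4 AKI libraries, and without it the log2 fold changes were -0.97 and -1.90. Ccn2, connective tissue growth factor, was at 43.4 and 41.3 CPM, against 120 CPM in AKI (-1.47 and -1.54).

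**Figure D4:**
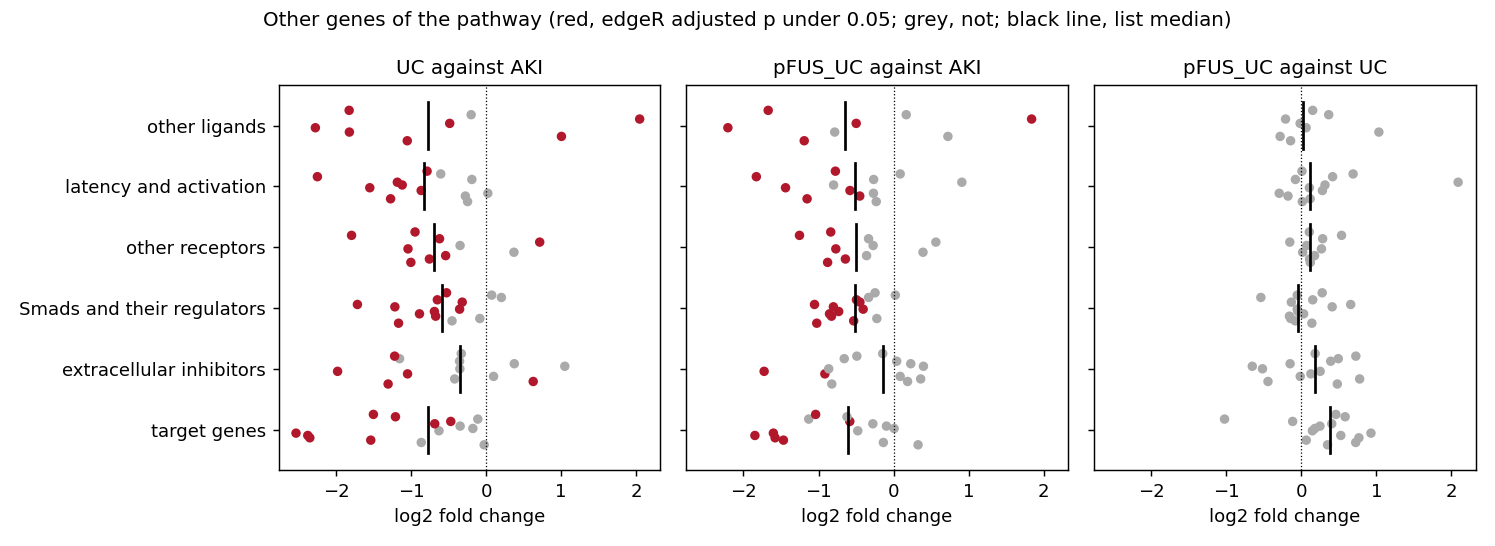
Log2 fold change (horizontal axis) of the 71 tested further pathway genes in 6 groups, 1 point per gene, with the group median as a black line; red marks an edgeR adjusted p under 0.05. The group medians lie between -0.15 and -0.83 against AKI and between -0.05 and 0.38 for pFUS_UC against UC.

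Markers of several kidney cell types differed from AKI beside these genes. Of all tested genes 22.1% fell and 21.9% rose in pFUS_UC against AKI, and 24.3% fell and 24.1% rose in UC against AKI (edgeR). The summed level of 10 endothelial markers was 261 to 396 CPM in pFUS_UC and 155 to 404 CPM in UC, against 656 to 1110 CPM in AKI; 8 of the 10 fell in pFUS_UC and 9 in UC. The endothelial marker Egfl7, named after its values were seen, rose in pFUS_UC by 0.47 on the log2 scale (edgeR adjusted p = 0.0235). For 8 podocyte markers the sums were 255 to 375 CPM in pFUS_UC and 170 to 323 CPM in UC, against 823 to 1210 CPM in AKI, and all 8 fell in both. For 8 fibroblast and pericyte markers they were 133 to 163 CPM in pFUS_UC and 108 to 172 CPM in UC, against 229 to 404 CPM in AKI, and 4 fell in pFUS_UC (2 rose) and 6 in UC (1 rose). The 5 thick limb (loop of Henle) markers summed to 1800 to 3040 CPM in pFUS_UC and 1130 to 3070 CPM in UC. In AKI they summed to 3650 to 5800 CPM, and 2 of them fell in pFUS_UC and 1 in UC. Umod held most of the AKI sum, with a mean of 3380 CPM against 883 CPM in UC. The other 4 thick limb markers were not called in UC. The sum of each of these lists lay below AKI without overlap (2-sided exact permutation p = 0.0286, the smallest that 4 against 4 samples allow, adjusted p = 0.0786 over 33 tests). No endothelial, podocyte or fibroblast marker was at 0 in any library. In bulk tissue fewer cells of a type and less RNA per cell cannot be told apart, and the part of these marker changes in the fall of the 10 genes was not tested.

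The sums of the other lists are given with the adjusted exact permutation p over the same 33 tests. Their counts of risen and fallen markers stand beside the shares of all tested genes given above. The 5 distal tubule markers summed to 1170 to 1440 CPM in pFUS_UC and 269 to 1010 CPM in UC, against 278 to 521 CPM in AKI, and all 5 rose in pFUS_UC and 2 in UC (adjusted exact permutation p = 0.0786 and 0.339 for the sums). The 8 collecting duct markers summed to 1210 to 2020 CPM in pFUS_UC, 912 to 2800 CPM in UC and 880 to 1410 CPM in AKI (exact permutation, adjusted p = 0.221 and 0.248 against AKI). The 8 proximal tubule markers summed to 8740 to 9870 CPM in pFUS_UC, 6090 to 9140 CPM in UC and 8730 to 14300 CPM in AKI, with 4 and 5 fallen (exact permutation, adjusted p = 0.339 and 0.177 for the sums). Macrophage markers summed to 148 to 179 CPM in pFUS_UC, 72.1 to 184 CPM in UC and 99.9 to 189 CPM in AKI (exact permutation, adjusted p = 0.486 and 0.455 against AKI). The 5 platelet and megakaryocyte markers summed to 18.9 to 27.6 CPM in pFUS_UC and 19.7 to 27.8 CPM in UC. In AKI they summed to 12.2 to 13.6 CPM (exact permutation, adjusted p = 0.0786 in both comparisons). Itga2b held most of these sums, at 10.9 to 26.2 CPM over the 12 libraries. No other marker of this list passed 1.38 CPM, and Gp1bb was at 0 in all 12 libraries. By edgeR 1 of the 3 tested markers rose against AKI in pFUS_UC and 1 in UC, and none fell. In UC the risen marker was Itga2b (log2 fold change 0.97, edgeR adjusted p = 0.000238), and Pf4 was at -0.10 (0.867). The 6 adipocyte markers summed to 66.4 to 247 CPM in pFUS_UC, 9.95 to 67 CPM in UC and 54 to 170 CPM in AKI (exact permutation, adjusted p = 0.329 and 0.135 against AKI). Those of T and B lymphocytes summed to 4.93 to 25.5 CPM in pFUS_UC, 3.44 to 15.3 CPM in UC and 1.92 to 7.11 CPM in AKI (exact permutation, adjusted p = 0.177 and 0.384). By edgeR against AKI, 2 of 7 tested collecting duct markers rose in pFUS_UC and 3 in UC, and none fell. Of 8 macrophage markers 1 fell in pFUS_UC and 2 in UC, and none rose. Of 6 adipocyte markers 1 rose in pFUS_UC and none fell, while 4 fell in UC and none rose. None of the 4 tested lymphocyte markers was called in either comparison. None of the sums of these other lists passed the adjusted threshold. Sums without overlap with AKI, as for distal tubule in pFUS_UC, had the smallest exact permutation p possible, 0.0286, which came to 0.0786 after adjustment. Missing the threshold therefore does not show that these sums were alike.

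For each of the 10 genes the tested gene with the most similar profile was sought, by the root mean square difference of centred log2 CPM over the 12 libraries, among genes with a mean of at least 5 CPM. For Id1 it was Id3 (difference 0.251, where the spread of Id1 itself was 0.469). For Bmp6 it was Prag1 (0.117 of 0.686), for Tgfbr2 Cdc42ep4 (0.138 of 0.588), for Tgfb1 2310022B05Rik (0.146 of 0.532), for Smad7 Fbxl14 (0.105 of 0.521) and for Bmp7 Zbed3 (0.13 of 0.441). Tgfb2 was nearest to Pde4b (0.237 of 0.564), Tgfb3 to Trim62 (0.228 of 0.456), Tgfbr1 to Kpna4 (0.0903 of 0.194) and Bmp4 to Inpp5k (0.0764 of 0.161). A small difference describes these libraries only, since groups and libraries are shared by all genes.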

How the data were processed

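Kidney RNA of 12 mouse samples was sequenced in bulk. The deposited table holds raw counts per gene, and a second deposited table holds FPKM for the same genes. The authors used HTSeq, DESeq2 and GRCm39 (mm39), per the submitters' processing notes, with no versions; the sources used here do not give the aligner, annotation or strandedness. The deposited FPKM are each gene's counts per its length in the table and per a library total that was 0.862 to 1.11 times the summed counts, so comparisons between genes, and shares, use FPKM, and comparisons within a gene use counts.

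The main test used edgeR 4.0.16 (R 4.3.3) and the counts of all 12 samples (filterByExpr, minimum count 10, minimum total 15; TMM; quasi-likelihood F-test, 9 residual degrees of freedom; Benjamini-Hochberg over 16947 genes, threshold 0.05). The procedure was tested on simulated data with a small part of the genes changed and no shift of library composition. That run does not test the scaling in these data. SE is the absolute log2 fold change over the square root of F; 95% intervals use the fit's total degrees of freedom. Replicate numbers did not pair the samples (closing section).

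Alternatives were DESeq2 1.42.0, its size factors, upper-quartile scaling, other filters, the groups compared alone, a replicate block, offsets smoothed on gene length with or without GC content (GENCODE M21 transcripts, GRCm38, matched by identifier, 98.12% of genes; mgcv), limma 3.58.1 on log2(FPKM + 1) or log2(FPKM + 0.1), and left-out samples. All 10 genes are named, with up to 3 called genes of smallest p per further list and comparison. Members, lists and alternatives were chosen with earlier results of these data known.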

Additional observations from a re-analysis of the deposited data

Results flagged for a closer look

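In a group of 4, a library was taken to stand apart where the share of its gap to the nearest other library in the group's range was above Dixon's 95% critical value. Of 129 groups of 4 values checked 3 met this, 2 of them among the 30 groups of the 10 genes; chance gives about 1 in 20. Bmp6 was at 60.7 CPM in pFUS_UC replicate 1, where the other pFUS_UC libraries had 37.2 to 39.6 CPM. Id1 was at 162 CPM in UC replicate 2, where the other UC libraries had 68.4 to 74.7 CPM. Id4 was at 111 CPM in AKI replicate 1, where the other AKI libraries had 73.9 to 77.8 CPM.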

How the results depend on the processing

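The 13 calls of the 10 genes kept their direction in all 253 repeats with another setting and lost the threshold in 6, those of Tgfb3 and Tgfbr2 given above. Without 1 library, 6 to 7 of the 10 genes were called in each comparison with AKI; over all genes 7090 to 8443 were called in UC and 5945 to 7740 in pFUS_UC, and with UC replicates 1 and 2 both left out 5414 in UC, where fewer samples entered. For pFUS_UC against UC, where edgeR called 0 genes, DESeq2 called 44 (1 of the further pathway genes), no filter gave 13, the replicate block 2 and left-out libraries 0 to 1 (1 without pFUS_UC replicate 4); the cause was not tested. Same-numbered samples did not deviate together (correlations -0.165 to 0.147, 2 of 12 samples best with their own number), so the numbers were not taken to pair them. With the replicate block 6, 7 and 0 of the 10 genes were called in UC against AKI, pFUS_UC against AKI and pFUS_UC against UC, and 7791, 7044 and 2 of all genes.

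Small differences that passed no test changed sign. Against AKI, Bmp4 was at -0.107 (length offsets) and -0.0198 (length and GC) in pFUS_UC, and -0.108, -0.0255 and -0.0195 (without UC replicates 1 and 2) in UC. Tgfbr1 was at -0.0156 in pFUS_UC and -0.0298 in UC with no filter, and -0.0333 in UC without UC replicates 1 and 2. For pFUS_UC against UC, Tgfbr1 was at -8.5e-05 (DESeq2 size factors), -0.0371 (length), -0.0587 (length and GC), -0.00297 and -0.00374 (limma with 1 and 0.1 added), and Smad7 at -0.0769 without UC replicates 1 and 2. In pFUS_UC against AKI, Id1 was at 0.0899 and Id3 at 0.0431 with upper-quartile scaling, and Id2 at -0.000433 (DESeq2), -0.000477 (its size factors), -0.0287 (no filter), -0.156 (length), -0.25 (length and GC) and -0.0172 and -0.0174 (limma). Leaving out 1 library gave, for pFUS_UC against AKI, -0.0175 to 0.201 for Bmp4, -0.302 to 0.111 for Id1, -0.0713 to 0.135 for Tgfbr1, -0.104 to 0.0771 for Id2 and -0.221 to 0.0605 for Id3. For UC against AKI it gave -0.0763 to 0.13 for Tgfbr1. For pFUS_UC against UC it gave -0.0832 to 0.0867 for Bmp4, -0.158 to 0.163 for Bmp6, -0.000587 to 0.223 for Smad7, -0.0594 to 0.0709 for Tgfbr1 and -0.342 to 0.0733 for Tgfbr2. Depth limits Tgfb3 most, with 22 to 95 counts per library.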
